A study of Mus musculus with 3 samples.

Results

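The cells described here are the 349 naive CD4 T cells that the authors placed in the Middle CD5 class, out of 697 cells in 3 plates, which is 50.1% of the cells. They were chosen by that deposited class, which follows their CD5 fluorescence, and not by any transcript. Plates 1, 2 and 3 held 75, 100 and 174 Middle cells. Inside each plate the Middle cells were split at their own median CD5 fluorescence into 175 Middle-lower cells (38, 50 and 87 by plate) and 174 Middle-upper cells (37, 50 and 87), to ask whether transcript levels follow CD5 inside the class. The cells flanking the class are 174 Low and 174 High cells from the same plates.

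CD5 is a surface glycoprotein of T cells that dampens signals from the T cell receptor (TCR). Naive T cells receive weak, continuous TCR signals from self peptides on MHC molecules, and a cell that receives stronger signals of this kind carries more surface CD5. CD5 is therefore widely used to rank naive cells by self-reactivity, and its messenger RNA is made from the Cd5 gene.

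All groups were of the same kind of animal: C57BL/6 mice aged 8 to 12 weeks, with males and females pooled and with spleen and lymph nodes as the tissue. The cells were sorted fresh as live singlets that were TCRb+, CD4+, CD8-, CD25-, CD44- and CD5+, among other markers, 1 cell to a well of a 384-well plate, and their CD5 fluorescence was kept for each well. Transcripts were read by SORT-seq, a plate version of CEL-Seq2 that counts molecules by a unique molecular identifier (UMI) of 6 bases. Nothing in the labels ties a plate to separate animals. The p-values here therefore measure only the spread between sums of cells in these plates, which may be technical. In edgeR that spread was largely shared over genes, with 45.4 prior and 6 residual degrees of freedom, and is not the plate spread of 1 gene.

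The class was narrow on the CD5 axis. The lowest Middle cell read 26773 fluorescence units and the highest Low cell 26610, while the highest Middle cell read 69676 and the lowest High cell 69889. The class thus spanned 2.60-fold in CD5, and the median Middle cell read 42668 units in plate 1, 48060.5 in plate 2 and 45417 in plate 3. At the split, the nearest Middle-lower and Middle-upper cells read 42668 and 42929 in plate 1, 47036 and 49085 in plate 2, and 45348 and 45486 in plate 3. The mean log2 CD5 of Middle-upper cells exceeded that of Middle-lower cells by 0.67, against 2.60 between High and Low cells. The split therefore tested a much shorter step of CD5 than the comparison of the outer classes.

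**Figure D1:**
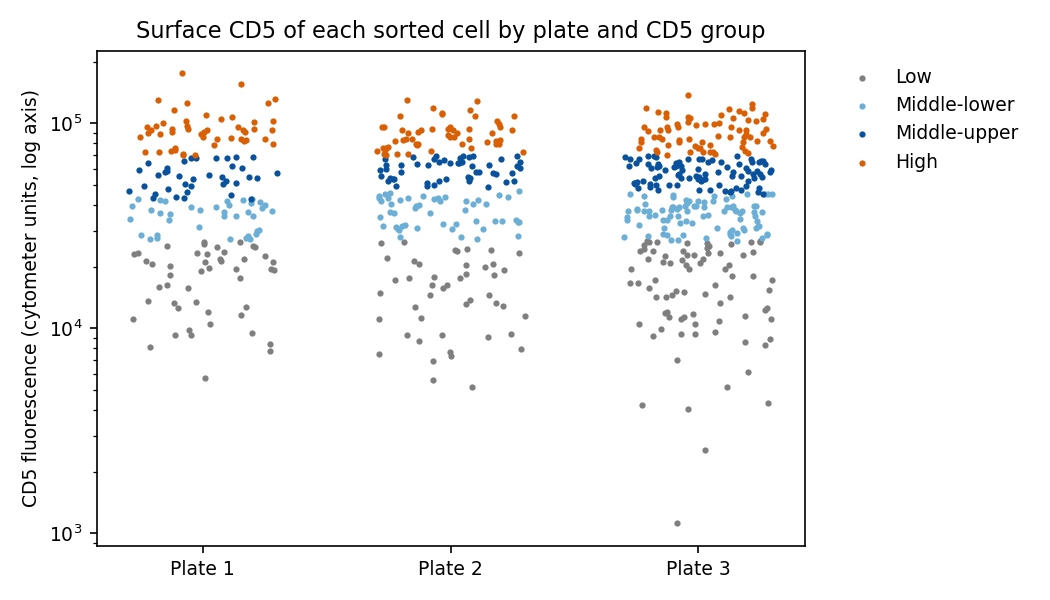
CD5 fluorescence of each cell (log axis, cytometer units) by plate, 1 point per cell, with colours for Low, Middle-lower, Middle-upper and High cells. The 349 Middle cells lie between 26773 and 69676 units in all 3 plates, and each plate is split at its own Middle median.

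The Middle cells carried the transcripts of their sort label. Cd4, the coreceptor for MHC class II, had a UMI in 95.7% of the 349 cells (95% exact interval 93.0 to 97.6), and Cd3e, a signalling chain of the TCR complex, in 83.1% (78.7 to 86.9). Cd5 itself had a UMI in 40.4% of Middle cells (35.2 to 45.8), against 23.6% of Low and 56.3% of High cells. Naive-cell transcripts were common: Lef1, a transcription factor of naive T cells, was found in 84.5%, Ccr7, the lymph node homing receptor, in 66.2% and Il7r, a receptor chain for the survival cytokine IL-7, in 61.9%. Genes excluded by the sort were rare, with Cd8a in 0.86%, Il2ra (CD25) in 1.43% and Cd44 in 9.17% of Middle cells. These intervals cover counting error only.

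Markers of other cells were low but not all absent. The B cell genes Cd79a and Cd79b each had a UMI in at most 1.43% of Middle cells, and Cd74, of the MHC class II pathway, in 4.01%. Foxp3, the factor that defines regulatory T cells, had a UMI in 20 Middle cells, or 5.73% (3.54 to 8.71), with 0%, 1% and 10.9% of the cells in plates 1, 2 and 3. The share was 9.77% of Low and 10.9% of High cells. Klrd1, of NK cells, was found in 10.9%, and the myeloid genes Ctss and Cst3 in 42.4% and 20.6%. Both myeloid genes had similar shares in Low cells (36.8% and 16.7%) and High cells (39.1% and 21.8%). Any of 3 NK cell genes had a UMI in 12.3% of Middle, 5.75% of Low and 9.77% of High cells, a difference that was not tested. The summed levels of the lists in Middle cells ranged over plates from 0.000622% to 0.0115% of UMIs for 8 B cell genes, from 0.0229% to 0.0336% for 7 myeloid genes and from 0.0299% to 0.0408% for 13 regulatory T cell genes. They ranged from 0.00349% to 0.00591% for 3 NK cell genes, from 0.000933% to 0.00174% for 2 CD8 T cell genes, from 0% to 0.000622% for 2 erythroid genes and from 0.151% to 0.207% for 19 cycling genes. Nkg7, of cytotoxic cells, had no UMI in any of the 349 Middle cells, which allows a share of cells with a UMI of up to 0.86% (3 counts of 349) and sets no limit on cells that express it. Their part in the results below was not tested, except that the comparisons were repeated without the cells holding a Foxp3 UMI.

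A Middle cell held a median of 4232 UMIs and 1349 genes, with plate medians of 3746, 5770 and 3784 UMIs, and the class held 321486, 575565 and 745813 UMIs in plates 1, 2 and 3. Plate 2 stood apart: Rn45s, the precursor of ribosomal RNA, took 5.10% of the UMIs of its Middle cells, against 2.18% in plate 1 and 2.59% in plate 3. Of the well positions, 82 held a Middle cell in 2 or more plates, and 0 pairs of cells from different plates had identical profiles. No doublet caller was run, since 1 cell was sorted to each well.

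The profile of the class was led by ribosomal and mitochondrial RNA. Rn45s had the highest mean, at 32891 ± 15804 CPM, the UMIs of a gene scaled to 1000000 UMIs of the sum (mean ± SD, n = 3 plates), followed by mtAtp6, a subunit of ATP synthase, at 28454 ± 11300 and mt-Rnr2, the large mitochondrial ribosomal RNA, at 20651 ± 3975. Plate 2 set that order: Rn45s held 21823, 50990 and 25859 CPM in plates 1, 2 and 3 and mtAtp6 37666, 15846 and 31849, so mtAtp6 was the higher in plates 1 and 3. Tpt1, a translation-associated protein, was the highest nuclear messenger at 9207 ± 345 CPM, and Kcnq1ot1, a long noncoding antisense RNA of an imprinted locus, stood at 6641 ± 1883. The highest 20 genes also included mtCo1, mtCytb, mtCo2, mtNd4, mtNd2, mtNd1, mtCo3 and mt-Rnr1 from the mitochondrial genome, the translation genes Eef1a1, Rplp1 and Rpl5, and B2m (the light chain of MHC class I), Tmsb4x and Actb (actin and its binding peptide). These 20 genes took 22.4% of UMIs. Of 14355 genes in the table, 12650 had a UMI in at least 1 Middle cell, 112 had one in 90% or more of them and 17 in every one.

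No difference in RNA content between Middle-lower and Middle-upper cells was detectable. Median UMIs per cell were 3389, 5978 and 3724 in Middle-lower cells of plates 1, 2 and 3 and 3946, 5409 and 3962 in Middle-upper cells, which is 0.055 ± 0.18 on the log2 scale (SD, n = 3 plates) with an exact sign-flip permutation p of 0.75, adjusted to 0.875 over 7 measures. The ratio went up in 2 of 3 plates. UMIs per spike-in molecule were lower in Middle-upper cells in 3 of 3 plates, by a mean of -0.096 ± 0.11 on the log2 scale (exact p = 0.25, adjusted 0.583). Mitochondrial RNA differed by -0.029 ± 0.098 and ribosomal protein messengers by -0.0003 ± 0.086 on that scale. The smallest two-sided p that 3 plates allow is 0.25, so none of the 7 measures could pass.

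Across the transcriptome, 1 gene passed between Middle-upper and Middle-lower cells. With edgeR's quasi-likelihood test on the summed counts, blocked by plate and adjusted by the Benjamini-Hochberg method at 0.05, 1 of 4937 tested genes was called (0.0203% of genes), and it was Rn45s, higher in Middle-upper cells. At an unadjusted p under 0.05 there were 201 genes, or 4.07% of those tested. DESeq2's Wald test on the same sums called 0, and its unadjusted p was under 0.05 for 123. The median log2 difference over all genes was 0.012, and 51.1% of genes were above 0. The median 95% interval reached 0.904 to either side of its estimate. For the 1481 genes at 100 CPM or more it reached 0.556, and 85.2% of those genes had an interval that lay within a 2-fold change in either direction.

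The Rn45s call rested on few cells and on where the class was split, and did not hold in every plate. Summed Middle-lower cells held 19587, 55543 and 22134 CPM of Rn45s in plates 1, 2 and 3, and Middle-upper cells 27766, 54711 and 32653, scaled by edgeR's TMM factors. Plates 1 and 3 were higher in Middle-upper cells and plate 2 was not. The log2 difference was 0.36 (SE 0.06, edgeR adjusted p = 0.00248), with 0.50, -0.022 and 0.56 by plate. This SE rests largely on the spread shared over genes, and the plates differed by more than it. In plate 3, 1 Middle-upper cell held 3107 Rn45s UMIs, 50.8% of its own UMIs and 27.5% of all Rn45s UMIs in its group, and in plate 1 a Middle-upper cell held 1019, or 24.0% of its group's. Without the single richest Middle cell the difference was 0.20 (edgeR adjusted p = 0.997), and without the richest Middle cell of each plate it was 0.011 (0.998). The cells taken out, richest by share, were all Middle-upper cells, so this could only lower the difference. Without each group's own richest cell, Rn45s took 1.63%, 4.78% and 2.11% of Middle-lower UMIs in plates 1, 2 and 3. It then took 2.07%, 4.35% and 2.23% of Middle-upper UMIs. Without plate 1 the difference was 0.27 (0.754), without plate 3 0.24 (0.995), and without plate 2 0.52 (6.9e-16). With the top against the bottom tertile of the class it turned to -0.12 (0.936), and with a split at the median of all Middle cells together it was 0.057 (0.998).

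By the median cell of each group, the Rn45s difference ran the other way. The median share of Rn45s per cell was 1.60%, 3.80% and 1.36% in Middle-lower cells of plates 1, 2 and 3, and 1.02%, 2.53% and 1.15% in Middle-upper cells. It was lower in Middle-upper cells in 3 of 3 plates, by a mean of -0.49 ± 0.22 on the log2 scale (exact p = 0.25, adjusted 0.583). With means in place of medians this measure was 0.15. Across single Middle cells, the Rn45s share had a Spearman correlation with CD5 fluorescence of -0.17, -0.14 and 0.027 in plates 1, 2 and 3. Plate 3 thus showed no such order from cell to cell. Rn45s comes from repeated genomic units whose copies cannot be told apart in these counts.

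**Figure D2:**
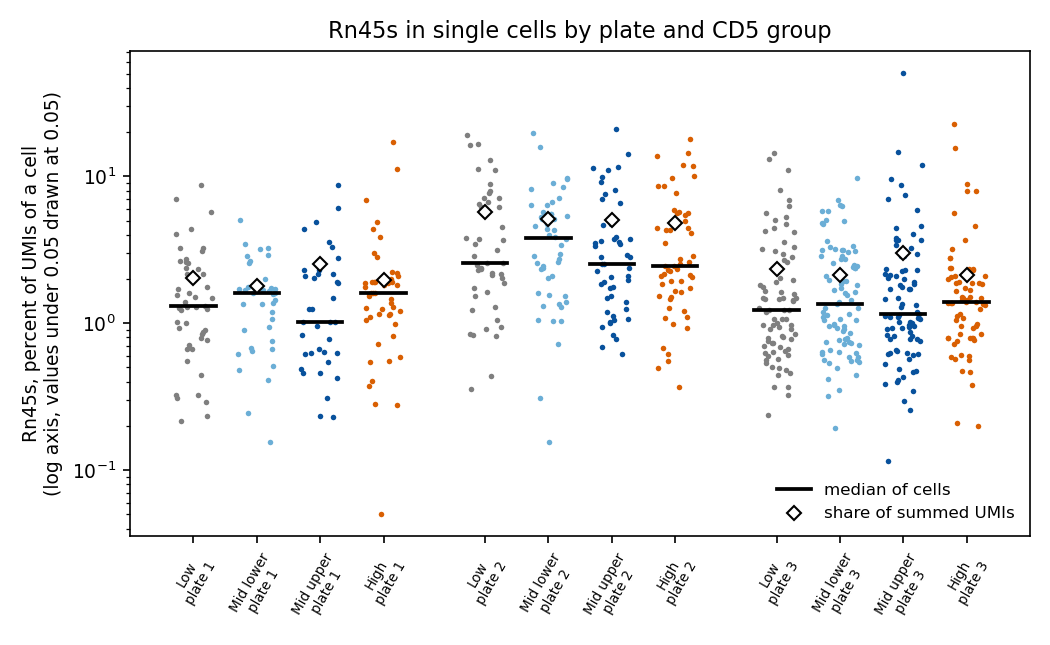
Rn45s as a percent of the UMIs of each cell (log axis), by plate and CD5 group, with a bar at the median cell and a diamond at the share of the group's summed UMIs. In plates 1 and 3 the diamond of Middle-upper cells is above that of Middle-lower cells while the bar is below it, and 1 Middle-upper cell of plate 3 stands at 50.8%.

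Cd5 was not detectably graded inside the class. The gene lies at chr19:10717116-10739002 on the minus strand (mm10, GENCODE M21) and codes for protein. Summed Middle-lower cells held 226, 203 and 174 CPM of Cd5 in plates 1, 2 and 3, and Middle-upper cells held 197, 336 and 182. The groups overlapped, and plate 2 alone carried most of the difference. Outside the class, Low cells held 101, 289 and 51.3 CPM and High cells 672, 298 and 352, so that Middle sums lay between Low and High in plates 1 and 3 and not in plate 2. The log2 difference between Middle-upper and Middle-lower cells was 0.24 (SE 0.30, 95% interval -0.37 to 0.84, edgeR adjusted p = 0.998). It was -0.057 without plate 2. The share of cells with a Cd5 UMI was 42.3% in Middle-lower and 38.5% in Middle-upper cells, and 31.7% and 27.9% after thinning to 2118 UMIs, the opposite order to the summed level, so no order is read from it. Over single Middle cells, the Spearman correlation of the Cd5 share of UMIs with CD5 fluorescence was 0.065, -0.017 and -0.035 in plates 1, 2 and 3 (75, 100 and 174 cells), against 0.39, 0.081 and 0.26 over all cells of each plate. These correlations are across cells that share a library and carry no p.

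The 11 other genes that earlier results on these libraries had linked to CD5 were followed into the class. They were chosen from these same samples, so their direction is not independent evidence, and 0 of the 12 with Cd5 passed between Middle-upper and Middle-lower cells. With Cd5, 10 of 12 had a positive difference, with a median of 0.14 against 0.012 over all genes. Fam78a and Pvr are among the 10, although their estimates fell from Low through Middle to High cells. The 10 also hold Kcnq1ot1 and the genes described with it below, and whether those vary separately was not tested. The count is therefore not read as a shared trend. Cd6, a surface receptor related to CD5 (chr19:10789341-10830058, minus strand), held 120, 291 and 102 CPM in Middle-lower cells and 295, 219 and 205 in Middle-upper cells. Plates 1 and 3 were higher and plate 2 lower, and the log2 difference was 0.51 (SE 0.32, edgeR adjusted p = 0.998). Without plate 2 it was 1.11 (SE 0.34, adjusted p = 0.545).

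Folr4, which encodes the folate receptor family protein FR4 found on regulatory and anergic T cells, differed by -0.012 (SE 0.26), with 240, 277 and 147 CPM in Middle-lower and 413, 215 and 101 in Middle-upper cells. Igfbp4, a secreted binder of insulin-like growth factors, differed by -0.10 (SE 0.16), Fam78a by 0.062 (SE 0.24) and Pvr, an adhesion receptor, by 0.12 (SE 0.45). In all of these the plates differed in sign.

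Kcnq1ot1 and 5 genes linked to CD5 with it leaned the same way with little size. Kcnq1ot1 (chr7:143203458-143296549, minus strand) held 8676, 4213 and 7710 CPM in Middle-lower cells and 8115, 5551 and 8713 in Middle-upper cells, so plates 2 and 3 were higher and plate 1 lower. Its log2 difference was 0.16 (SE 0.10, edgeR adjusted p = 0.998). A630089N07Rik differed by 0.17, Gm17821 by 0.14, Vmn2r55 by 0.13, A130077B15Rik by 0.23 and Grk4 by 0.036, none past the threshold. Gm17821 (chr12:67658527-67669276, minus strand) is annotated as a processed pseudogene and A130077B15Rik as a long intergenic noncoding RNA, and the 6 genes lie on 5 chromosomes. The counting of reads that match several places was not given in the sources used here, so levels under these symbols are uncertain. The median Kcnq1ot1 share per cell was higher in Middle-upper cells in 3 of 3 plates, by 0.38 ± 0.12 on the log2 scale (exact p = 0.25, adjusted 0.583).

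**Figure D3:**
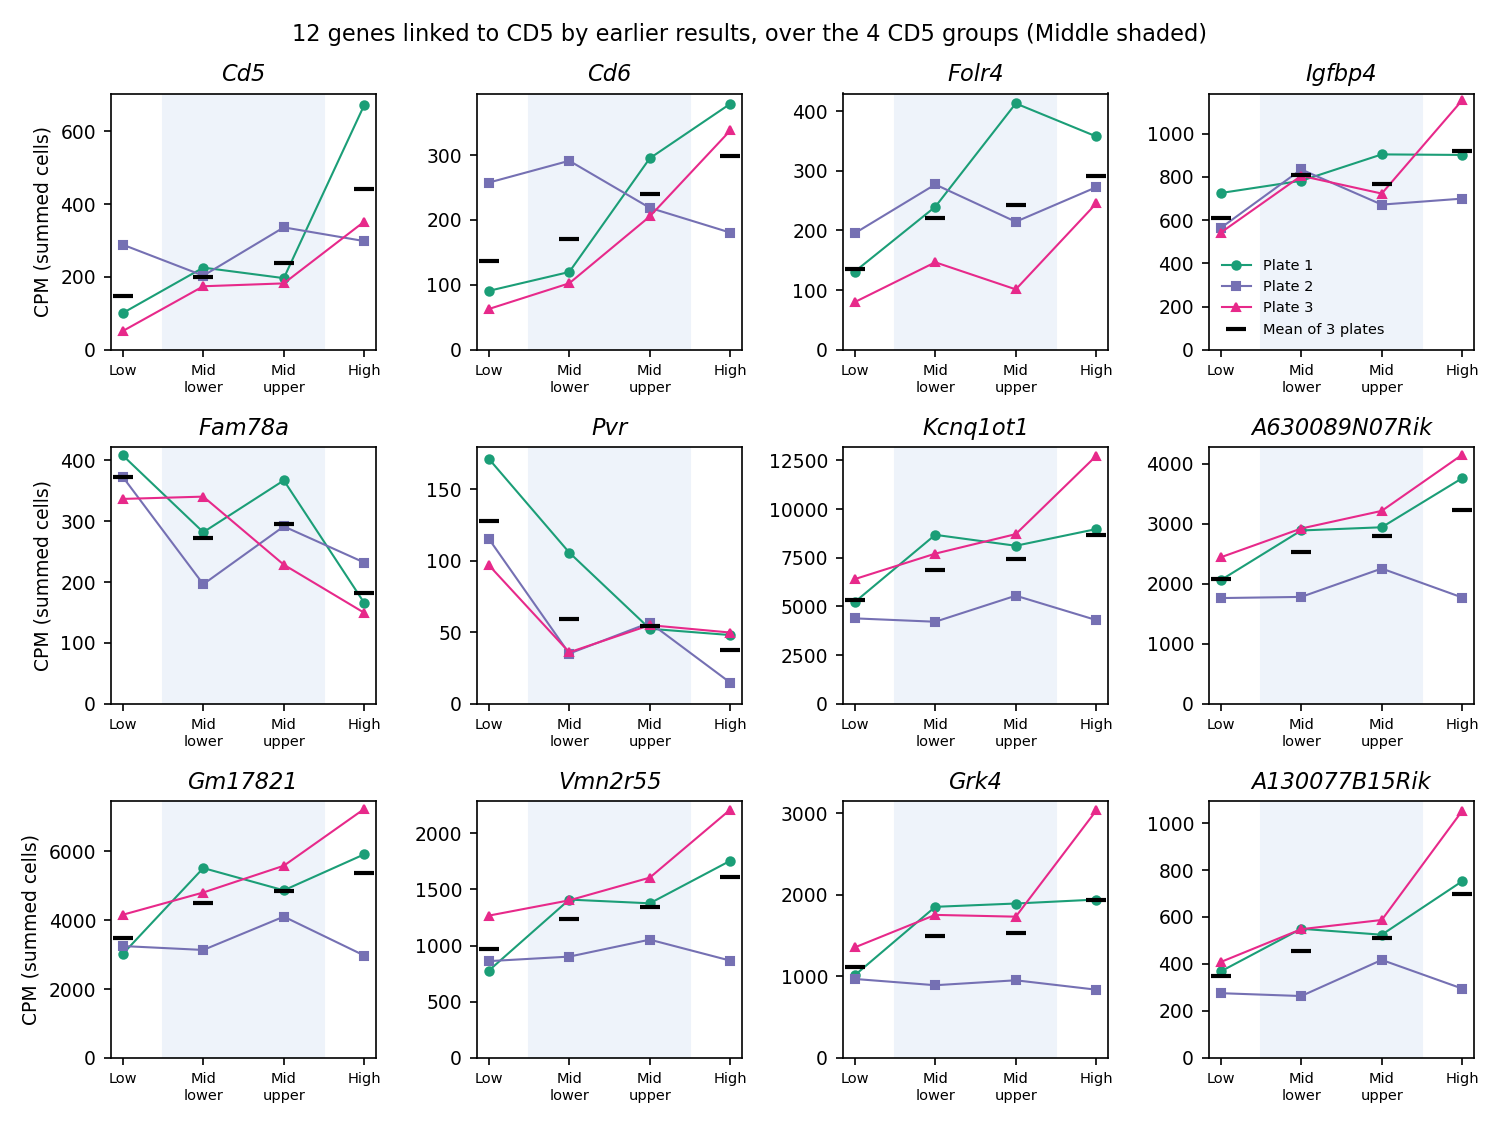
Level of the 12 genes in summed cells (CPM, linear axis from 0) over Low, Middle-lower, Middle-upper and High cells, 1 line per plate and a bar at the mean of 3 plates. The lines of plates 1 and 3 end higher at High than at Low for Cd5 and Cd6, while plate 2 shows no clear rise. In plate 1 the Cd5 line dips from Middle-lower to Middle-upper cells. Inside the shaded Middle class the plates differ in direction for most genes.

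The order of CD5 inside the class was also tested as a slope. The Middle cells of each plate were cut into 4 bins by CD5, and 0 of 2987 tested genes passed in edgeR (0% called), with 136 at an unadjusted p under 0.05. DESeq2 called 0, with 111 at an unadjusted p under 0.05. Cd5 held 208, 276, 139 and 294 CPM from the lowest to the highest bin in plate 1, 211, 232, 270 and 458 in plate 2, and 221, 157, 164 and 229 in plate 3. Only plate 2 climbed from bin to bin. The slope was 0.47 per doubling of CD5 (SE 0.31, edgeR adjusted p = 0.998).

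Kcnq1ot1 had a slope of 0.50 per doubling (SE 0.17, unadjusted p = 0.0064, edgeR adjusted p = 0.928), with 0.66, 0.53 and 0.30 by plate. From the lowest to the highest bin it held 6019, 12651, 5329 and 12617 CPM in plate 1. In plate 2 it held 4793, 4337, 4424 and 7591, and in plate 3 8002, 8593, 8617 and 10118. Only plate 3 climbed from bin to bin. Kcnq1ot1 passed in 1 alternative, without the filter on low counts, at 0.51 (adjusted p = 0.000197). A630089N07Rik at 0.42, Gm17821 at 0.42, Vmn2r55 at 0.40, A130077B15Rik at 0.68 and Grk4 at 0.35 were positive in 3 of 3 plates too, and none passed. In plate 1 each of these, like Kcnq1ot1, fell from bin 2 to bin 3, so a positive slope was not a steady climb. Cd6 stood at 0.86 (SE 0.41), Folr4 at 0.67 (SE 0.47), Igfbp4 at 0.013 and Fam78a at -0.0066, and Pvr was too low to be tested. Of the 11 tested genes of this list, 10 had a positive slope, with a median of 0.42 against 0.0020 over all genes. Kcnq1ot1 and the genes given with it are again counted singly in the 10.

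The genes of smallest p that kept 1 sign in all plates did not pass and are given as values. Between Middle-upper and Middle-lower cells the positive ones were AB124611 (1.48), Wdr45b (1.81), Eid1 (1.15), Tnrc6c (1.12), Mir5109 (0.53) and Tpm3 (0.52). AB124611 held 63.4, 56.1 and 33.2 CPM in Middle-lower cells and 118, 154 and 127 in Middle-upper cells, with an edgeR adjusted p of 0.409. Tpm3, a tropomyosin of the actin cytoskeleton, held 493, 526 and 567 CPM against 728, 769 and 775 (adjusted p = 0.998). Mir5109 passed without plate 2, at 0.64 (edgeR adjusted p = 0.00468), and without the filter on low counts.

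The negative ones were E430025E21Rik (-3.07), Trim34a (-1.62), Tia1 (-1.44), Phf21a (-1.12), Dctn6 (-1.01) and Lcp2 (-0.72). Tia1, an RNA-binding regulator of translation, held 176, 137 and 99.6 CPM in Middle-lower cells and 32.8, 48.6 and 55.0 in Middle-upper cells (edgeR adjusted p = 0.687). Lcp2, the TCR adaptor SLP-76, held 493, 274 and 338 CPM against 243, 154 and 260 (adjusted p = 0.998). When plate 2 cells took the CD5 value of the next well, a setting described with the neighbouring classes, Tpm3 stood at 0.24, Tia1 at -0.86 and Lcp2 at -0.0041. In the slope test the smallest p values belonged to Lgals3bp (-2.03), Gbp4 (-1.35), Tia1 (-1.89), Rtn3 (-1.43), B230219D22Rik (-2.0) and Cyth2 (-2.16), and to Eid1 (1.67), Tpm3 (0.62), AB124611 (1.61), Sumo2 (0.91), Tmem134 (1.40) and Nr4a1 (1.83). All of these had an adjusted p of 0.928 in edgeR.

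**Figure D4:**
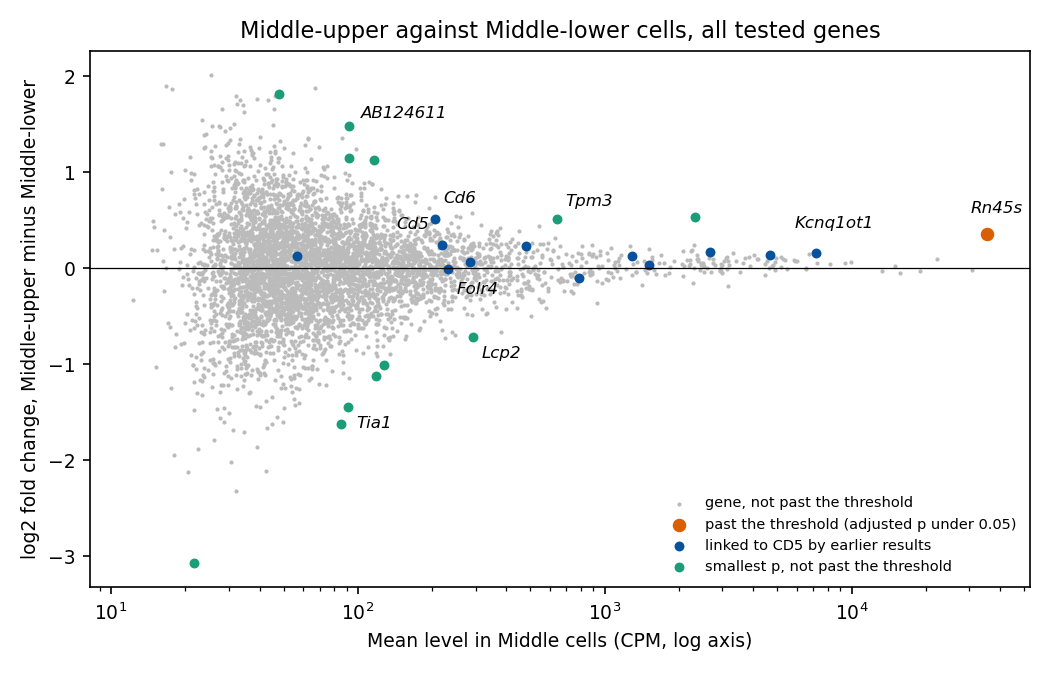
log2 fold change of Middle-upper over Middle-lower cells against the mean level in Middle cells (CPM, log axis) for 4937 tested genes, 1 point each. Rn45s is the 1 gene past the threshold, at 0.36, and the genes linked to CD5 lie between -0.10 and 0.51.

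Of 29 gene lists, 26 had tested members, and 0 of their members passed between Middle-upper and Middle-lower cells in edgeR. Values here are log2 differences of Middle-upper minus Middle-lower cells. For the TCR complex and its proximal signalling proteins, 6 of 26 tested members were above 0 and the median was -0.077. Beside Lcp2, the members of smallest p were Rasgrp1, an exchange factor that activates Ras, at -0.41, Cd4 at 0.20 and Cd3g at 0.26. Of 26 negative regulators of TCR signalling, 13 were above 0 with a median of -0.016. Socs1, which restrains cytokine signalling, stood at 1.18, the adaptor Sla at -0.52 and the phosphatase Dusp2 at 0.33, each with plates of both signs.

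Of 12 tested transcription factors and early genes that TCR signals induce, 5 were above 0 and the median was -0.042. Egr1, an immediate early factor, held 35.2, 10.5 and 33.2 CPM in Middle-lower cells and 157, 122 and 43.4 in Middle-upper cells. The difference was 1.88 (SE 0.63, edgeR adjusted p = 0.998). Nr4a1, which encodes Nur77, held 63.4, 35.1 and 52.6 CPM against 52.4, 227 and 86.8, an overlapping pair of groups with a difference of 1.36 (SE 0.48, adjusted p = 0.998). Leaving out 1 plate moved Nr4a1 between 0.38 (without plate 2) and 1.75, and Egr1 between 1.27 (without plate 2) and 2.74 (without plate 3). With the next well's CD5 for plate 2 cells, Egr1 stood at 0.49 and Nr4a1 at 0.84. Myc stood at 0.69 and Fosb at -0.48.

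Of 35 tested genes of the naive state, quiescence and homing, 14 were above 0 and the median was -0.074. Klf3 stood at -0.73, Ets1 at -0.26, Actn1 at -0.24 and S1pr1, the receptor for leaving lymph nodes, at -0.23, and each was negative in 3 of 3 plates. Of 7 memory and effector markers, 1 was above 0 and the median was -0.37. S100a10 held 289, 291 and 316 CPM in Middle-lower cells and 138, 154 and 260 in Middle-upper cells, and differed by -0.67 (SE 0.25, edgeR adjusted p = 0.998). It was -0.20 with the next well's CD5 for plate 2 cells. Lgals1 stood at -0.76, Id2 at -0.74 and Crip1 at -0.30.

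For genes tied to chronic self-antigen and anergy, 3 of 6 were above 0 with a median of -0.0050, and Tnfrsf18 (GITR) stood at 0.64, Tox at -0.16 and Nt5e (CD73) at 0.14. For 5 regulatory T cell markers the median was 0.14. Foxp3 was listed at 0, 0 and 41.5 CPM in Middle-lower cells and 0, 40.5 and 37.6 in Middle-upper cells. The plate 2 value rests on very few cells, by the share of cells with a Foxp3 UMI given above. Follicular helper genes had a median of -0.020 over 6, with Asap1 at 0.63, Icos at -0.37, Slamf6 at 0.24 and Rgs10 at -0.19. Helper subset genes had a median of 0.22 over 4, with Gata3 at 0.32, Stat6 at 0.30, Stat4 at 0.15 and Il4ra at -0.062. Markers of recent thymic emigrants had 2 tested members, Itm2a at 0.17 and Tox. Of the Ly6 surface genes, Ly6a stood at -0.22, Ly6c1 at 0.12 and Ly6e at -0.020.

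Survival genes and cytokine receptor chains had 10 of 18 above 0 and a median of 0.098, with Jak1 at 0.25, Il27ra at 0.43 and Bax, a promoter of cell death, at -1.11. GIMAP GTPases, which support lymphocyte survival, had 3 of 8 above 0, with Gimap8 at -0.35, Gimap7 at 0.39, Gimap4 at 0.15 and Gimap6 at -0.089. MHC class I presentation had a median of -0.018 over 14, with H2-T23 at 0.35, Tap2 at 0.33, Tapbp at -0.29 and Tap1 at -0.28. The type I interferon response had 15 of 33 above 0, with Lgals3bp at -1.14, Parp14 at 1.13, Ddx58 at -0.74 and Ifit1 at 0.66. Stress and heat shock genes had 7 of 22 above 0 and a median of -0.051, with Hspa1b at -0.89, Hsf1 at -0.85 and Dusp1 at -0.42.

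Of 74 cytosolic ribosomal protein genes, 57 were above 0, with a median of 0.054 and Rps14 at 0.24, Rps3 at 0.19, Rpl39 at 0.16 and Rpl23 at 0.13. Nuclear-encoded respiratory chain genes had 46 of 76 above 0 and a median of 0.088, with Atp5k at 0.74, Cox6b1 at 0.45, Ndufb5 at -0.65 and Ndufa12 at -0.58. The mitochondrial genome had 10 of 15 above 0, with mt-Rnr1 at 0.15, mtAtp8 at -0.17, mt-Rnr2 at 0.092 and mtNd5 at 0.093. Glycolysis had 6 of 10 above 0, with Hk1 at 0.52, Pfkp at 0.32, Ldha at 0.30 and Gpi1 at 0.16. Chromatin regulators had 19 of 42 above 0, with Smarca4 at -0.79, Rad21 at -0.53, Asxl1 at -0.51 and Smarca2 at -0.45. Actin and integrin genes had 19 of 36 above 0, with Dock8 at -0.42, Flna at -0.34, Itgb2 at -0.24 and Actg1 at 0.18.

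Cycling markers had 5 of 8 above 0, with Mcm7 at -1.20, Tuba1b at 0.34, Pcna at 0.21 and Tubb5 at 0.18. Among markers of other cells, Klrd1 stood at 0.47, Cst3 at 0.12 and Ctss at 0.042, and the B cell, CD8 T cell and erythroid lists had no member high enough to be tested.

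**Figure D5:**
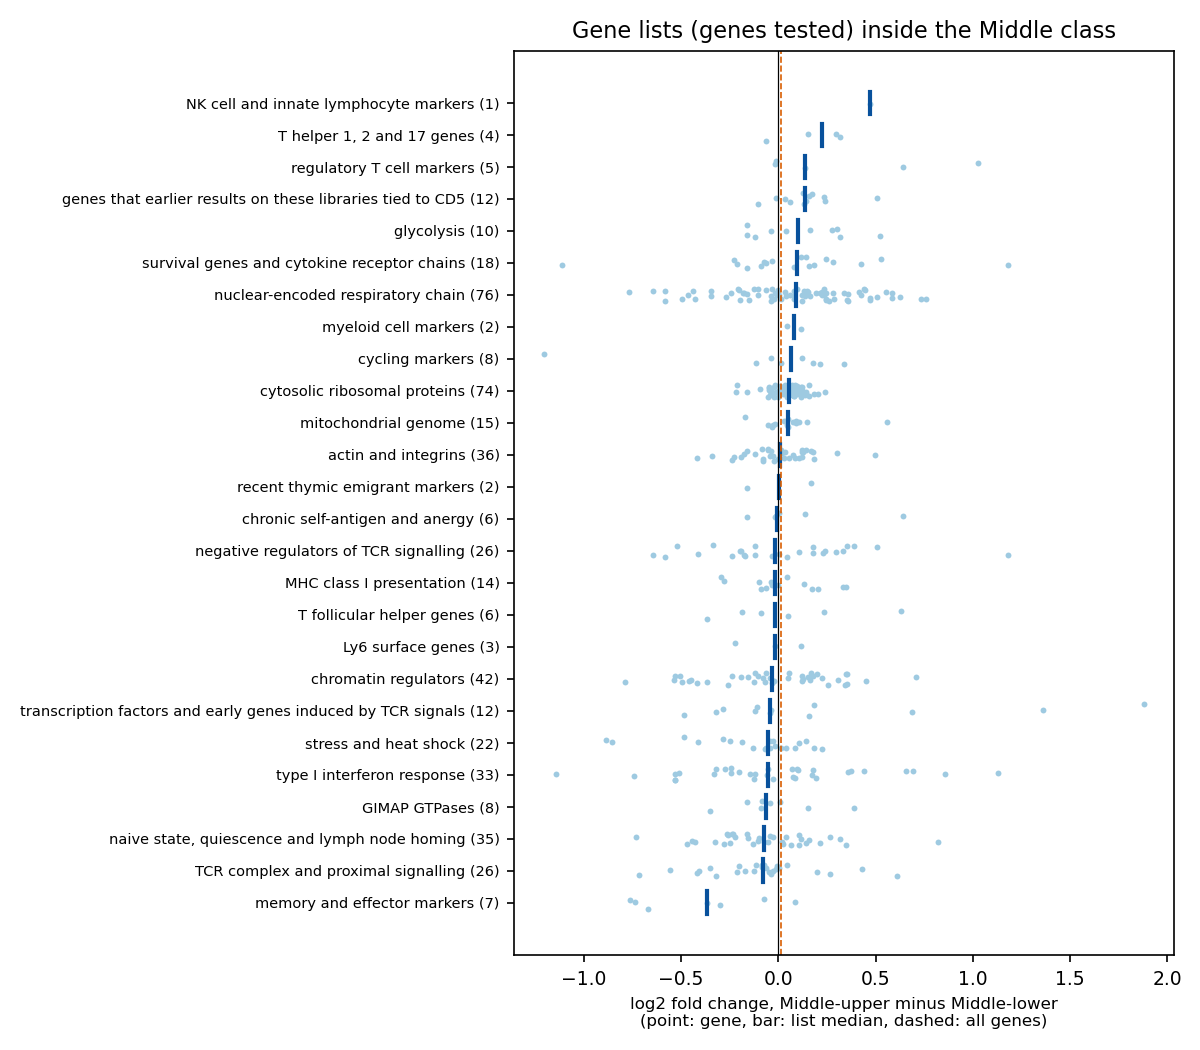
log2 fold change of Middle-upper over Middle-lower cells for the tested members of each gene list (points), with the list median (bar) and the median of all genes (dashed line, 0.012). Most medians lie near 0, and the median furthest below 0 is that of the 7 memory and effector markers, at -0.37.

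The class was then placed against its neighbours. Against Low cells, 0 of 4937 genes passed in edgeR (0% called), with 236 at an unadjusted p under 0.05, and DESeq2 called 0, with 145. Cd5 stood 0.70 above Low on the log2 scale (SE 0.28, edgeR adjusted p = 0.989), with 1.05, -0.14 and 1.77 by plate. The smallest p values belonged to Kcnq1ot1 at 0.39 (SE 0.09, adjusted p = 0.280), Gm17821 at 0.40, A630089N07Rik at 0.34, mtNd5 at 0.24, Vmn2r55 at 0.40 and Ikbkg at 1.32, and on the negative side to Cdk19 at -1.11, Pvr at -1.19, Mfap1a at -1.06, Srsf2, a splicing factor, at -0.48, Dpf2 at -1.05 and Paxbp1 at -0.81. Folr4 stood at 0.73, Cd6 at 0.64, A130077B15Rik at 0.44, Grk4 at 0.38, Igfbp4 at 0.38, Fam78a at -0.39 and Rn45s at 0.026.

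Against High cells, 0 of 4937 genes passed in edgeR (0% called), with 199 at an unadjusted p under 0.05, and DESeq2 called 0, with 132. Cd5 stood at -1.0 (SE 0.24, edgeR adjusted p = 0.240), with -1.66, -0.19 and -0.98 by plate. The smallest p values were those of Igf2r at -1.63 (adjusted p = 0.221), Usp4 at -1.47, Slc39a9 at -1.78, Rab11a at -1.38 and Efhd2 at -1.46 on the negative side, and of Iars at 1.77, Wdr92 at 0.29, Rn45s at 0.19, Phip at 0.88, Tpp2 at 0.91 and Glrx at 1.95 on the positive side. Cd6 stood at -0.63, A130077B15Rik at -0.47, Folr4 at -0.42, Grk4 at -0.29, Vmn2r55 at -0.27, A630089N07Rik at -0.23, Igfbp4 at -0.22, Kcnq1ot1 at -0.21, Gm17821 at -0.16, Pvr at 0.56 and Fam78a at 0.62. Both comparisons use the same Middle sums, so the values are given side by side.

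These counts rested on plate 2. Without it, 9 genes passed as higher in Middle than in Low cells, Cd5 at 1.44 (edgeR adjusted p = 0.00688) and Kcnq1ot1 at 0.51 (2.8e-09) among them, with Gm17821, A630089N07Rik, Vmn2r55, Grk4, Dapl1 and Mir5109 also among the 9. Against High cells 10 genes then passed. Cd5 at -1.32 (adjusted p = 0.000644), Cd6 at -1.13 (0.0208), Kcnq1ot1 at -0.39 (1.5e-05), Bcl2, A130077B15Rik, A630089N07Rik, Gm17821, Grk4 and Vmn2r55 were lower in Middle cells, and Rn45s was higher. Of the genes named only in these counts, Dapl1 and Bcl2 were chosen after their values were seen. In another setting, plate 2 cells took the CD5 value of the next well, a shift that an earlier analysis picked after seeing these data. Of 201 plate 2 cells, the 170 with a value in the next well were kept and classed anew by the same bounds. This gave 84 Middle cells in plate 2, of which 44 were Middle by their own CD5. All values given for the next well use these plate 2 cells. With this shift, 4 genes passed against Low and 3 against High cells. This shift was not tested against the sorting record.

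The class was also set against the point midway between its neighbours. Against the mean of Low and High cells, 0 of 4937 genes passed in edgeR (0% called), with 221 at an unadjusted p under 0.05, and DESeq2 called 0, with 128. Cd5 stood -0.15 from the midpoint (SE 0.21, 95% interval -0.58 to 0.28). The smallest p values belonged to Rnf181 (0.85), Gbp4 (0.69), Iars (1.01), Fchsd2 (1.21), mtNd4l (0.28) and Ikbkg (0.94) above the midpoint, and to Usp4 (-1.15), Rev3l (-0.73), Efhd2 (-1.25), Cdk19 (-0.84), Rab11a (-1.12) and Slc39a9 (-1.40) below it. The 11 other genes linked to CD5 lay between -0.31 for Pvr and 0.15 for Folr4, and Rn45s stood at 0.11. Without plate 2, Rn45s passed at 0.16 (adjusted p = 0.0185).

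The change per doubling of CD5 inside the class was compared with that between Low and High cells, which share no cells with it. In edgeR 1 of 4937 genes passed (0.0203% called), with 187 at an unadjusted p under 0.05, and DESeq2 was not run on this contrast. The gene was Rn45s, at 0.59 (SE 0.10, adjusted p = 0.000449), with 0.80, 0.089 and 0.87 by plate, a wider spread than the SE. It was 0.35 (adjusted p = 0.999) without the richest Middle cell, a Middle-upper cell, 0.48 (0.745) without plate 1 and 0.43 (0.830) without plate 3. For Cd5 the difference was -0.30 per doubling (SE 0.46, 95% interval -1.23 to 0.63), with plates of both signs, so the data did not show whether Cd5 climbs more slowly inside the class than outside it.

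For the other genes linked to CD5 the differences per doubling were 0.86 for Pvr, 0.48 for Fam78a, 0.27 for Cd6, 0.037 for A630089N07Rik, 0.00014 for Kcnq1ot1, -0.0011 for A130077B15Rik, -0.0052 for Gm17821, -0.062 for Vmn2r55, -0.20 for Grk4, -0.38 for Igfbp4 and -0.46 for Folr4. The genes of smallest p that did not pass were AB124611 (1.94), Tpm3 (0.81), Tnrc6c (1.67), Slc25a23 (2.48) and Rnf4 (2.13), and Trim34a (-2.33), Tia1 (-2.06), Extl3 (-2.78), Dctn6 (-1.61), Phyh (-3.88) and H3f3b (-0.65).

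Cells inside the class also differed from each other. After thinning 275 Middle cells to 2118 UMIs each, 3760 genes were compared in all plates, and 15 lay in the top 5% of excess variance over mean in each of the 3 plates. Rn45s led with a variance-to-mean ratio of 32.2, 77.5 and 205 in plates 1, 2 and 3, where 1 is the value for random sampling of molecules. The value of plate 3 includes the 1 Middle-upper cell with 50.8% of its UMIs in Rn45s, and the ratio without that cell is not given. Kcnq1ot1 followed with 41.2, 25.7 and 40.0 and Gm17821 with 31.0, 16.98 and 24.6. The other 12 were A630089N07Rik, Grk4 and Vmn2r55, the mitochondrial genes mt-Rnr2, mt-Rnr1, mtCo1, mtAtp6 and mtNd5, and Mir5109, Tti1, Gm10785 and the nuclear noncoding RNA Malat1. Of these 15 genes, 5 belong to the list linked to CD5, namely Kcnq1ot1, Gm17821, A630089N07Rik, Grk4 and Vmn2r55. How many genes of that list were among the 3760 is not given, and whether these 5 vary separately was not tested. Among Middle cells, 32 held over 2% of their UMIs in Kcnq1ot1. No member of the lists on TCR signalling was among the 15. How many of those members were among the 3760 is not given, so this is not read as a result.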

How the data were processed

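The deposited table holds expected counts per gene and cell, that is, UMI counts that the authors corrected for collisions among 6-base identifiers. CD5 was deposited as a signal, the fluorescence of each cell, and the class as Low, Middle or High. The deposited primer sheet was not used. Per the submitters' processing notes, reads were mapped with BWA to mm10. The BWA version was not given in the sources used here. Counts were summed per plate and CD5 group (12 sums), rounded, and tested two-sided in edgeR 4.0.16 (TMM, filterByExpr, quasi-likelihood, R 4.3.3) with the plate as a block, at a Benjamini-Hochberg adjusted p of 0.05. DESeq2 1.42.0 was an alternative. The plate number pairs the sums because groups of a plate share its library. Deviations from group means over 299 genes correlated within plates at 0.412 to 0.765. CPM are counts per 1000000 of the tested genes, scaled by TMM, except in the profile, where all genes enter the total. The fit took 45.4 prior and 6 residual degrees of freedom per gene, so a small p need not mean that the plates concur. Spike-ins entered no fit. Cells were thinned to the 20% quantile of totals. The script was tested on simulated data. Python 3.11.15 with numpy 2.4.6, pandas 2.3.3, scipy 1.17.1, statsmodels 0.14.6 and matplotlib 3.10.9 was used.

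The members, lists, tests and naming rule were chosen with earlier results of these data known. The rule names Cd5, then up to 12 passing genes per direction with 1 sign in 3 plates, or the genes of smallest p up to 6 where fewer than 10 pass, all genes linked to CD5, 4 members of smallest p per list, the 20 highest genes and the 15 most variable. A few genes that the rule or a count would name are not reported here. Positions come from GENCODE M21.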

Additional observations from a re-analysis of the deposited data

Results flagged for a closer look

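The change of Rn45s per doubling of CD5 differed between the inside of the Middle class and the Low and High cells, at 0.59 on the log2 scale (edgeR adjusted p = 0.000449). It rests on few cells, as given with the report of that comparison.

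A further 6 genes, all named above, had 1 sign between Middle-lower and Middle-upper cells in all 3 plates. Between Low and High cells they had the other sign in all 3 plates. Extl3 and H3f3b were named from the comparison per doubling, which favours opposite signs, so their opposition is not independent of how they were picked. The share of all tested genes with such opposite signs is not given, so the count is not read as a result. This opposition itself was not past the threshold for any of them in edgeR. Ets1 stood at -0.26 inside the class and 0.27 between High and Low (adjusted p of the difference per doubling = 0.998), Extl3 at -1.60 and 1.04 (0.987), H3f3b at -0.36 and 0.29 (0.987), Mfap1a at 0.39 and -0.96 (0.998), Rtn3 at -0.88 and 0.66 (0.998), and Slc39a9 at -1.88 and 0.75 (0.998).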

How the results depend on the processing

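The count between Middle-upper and Middle-lower cells, 1 gene, was 0 with DESeq2's Wald test, with a mean of at least 50 counts, with no replicate block, with cells thinned to 1 depth, with the top against the bottom tertile of the class, with a split at the median of all Middle cells together, and without the Middle cell richest in Rn45s, overall or of each plate. It was 2 with no filter on low counts and 0 to 2 when each plate was left out. Both settings on Rn45s-rich cells were chosen after seeing the data, and both took out Middle-upper cells only. The count per doubling of CD5 was 0 with a mean of at least 50 counts, with no replicate block, with thinned cells and without the richest cells, 2 with no filter and 0 to 1 without each plate. The slope gave 1 gene with no filter. Middle against Low gave 2 with no filter, 1 with thinned cells, 4 with plate 2 cells given the next well's CD5 and 0 to 9 without each plate. Middle against High gave 5 with no filter, 3 with the next well and 0 to 10 without each plate, and the midpoint comparison 0 to 1. The number of variable genes was 27 without thinning and 24 with the top 10%. In the 6 comparisons of the Middle class, taking out the block changed the 2 calls of Rn45s and no other. Between High and Low cells it took the count from 7 to 0. The cause of these changes was not tested. Depth limits the low genes: over all genes the median interval reached 0.904 to either side.

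Signs turned in the values that follow, all of them near 0 or short of the threshold unless said. Between Middle-upper and Middle-lower cells, thinning gave Folr4 0.18, Fam78a -0.035, Dusp2 -0.21, Ly6a 0.21, Ly6c1 -0.17, Ly6e 0.19, Gpi1 -0.11 and Itgb2 0.012. The next well gave Phf21a 0.24, Folr4 0.49, Fam78a -0.22, Igfbp4 0.095, Socs1 -0.54, Ets1 0.015, Actn1 0.053, Tox 0.41, Foxp3 -0.95, Itm2a -0.16, Gimap4 -0.040, Tap2 -0.23, Ifit1 -0.53, Tubb5 -0.017 and Ndufa12 0.22. The tertiles gave Rn45s -0.12, Pvr -0.13, Ly6c1 -0.037, Ly6e 0.035, Stat4 -0.48 and Il4ra 0.50, and the split at the common median gave Folr4 0.21, Ly6c1 -0.57 and Klrd1 -0.58. With only the Middle sums, Ly6c1 was -0.041 and Stat4 -0.0085. Folr4 was 0.082 with no replicate block and 0.27 without Foxp3 cells, Ctss -0.012 without Foxp3 cells, and Nt5e -0.055 without cells rich in Kcnq1ot1. Without the richest Rn45s cell of each plate Folr4 was 0.024 and Ly6c1 -0.22.

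For the slope, 3 bins gave Folr4 -0.12, Fam78a 0.27, Igfbp4 -0.094 and Rn45s -0.17, and 6 bins Fam78a 0.11 and Igfbp4 -0.0028. Fam78a was 0.023 with DESeq2's test, 0.00089 with its size factors, 0.011 with no filter, 0.090 without cells rich in Kcnq1ot1, and 0.015 and 0.020 without the richest Rn45s cells, where Rn45s was -0.0018. Igfbp4 was -0.12 with thinned cells, where Cd5 was -0.018, -0.0054 with a mean of at least 50 counts and -0.081 without Foxp3 cells.

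For the midpoint, Cd6 was -0.017 with DESeq2, -0.0011 with a mean of at least 50 counts and -0.019 with no filter. Thinning gave Folr4 -0.20 and Rn45s -0.074, the next well Ikbkg -0.13 and Pvr 0.0054, A130077B15Rik was 0.025 without cells rich in Kcnq1ot1, and Rn45s -0.061 without the richest cells. Against Low, Rn45s was -0.021 with thinned cells, -0.0024 with no filter, -0.043 with no replicate block, and -0.050 and -0.14 without the richest cells, and Ikbkg -0.032 with the next well. Against High, thinning gave Rn45s -0.13 and Pvr -0.20. Without cells rich in Kcnq1ot1, Vmn2r55 was 0.091, Grk4 0.074, Kcnq1ot1 0.13, A630089N07Rik 0.050 and Gm17821 0.13, and those cells were taken out by that gene's own level.

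Per doubling of CD5, Kcnq1ot1 was -0.017 with DESeq2 size factors, -0.032 with a mean of at least 50 counts, -0.12 with the next well, -0.011 with no filter, -0.089 with no replicate block, -0.015 without Foxp3 cells and -0.0080 without the richest Rn45s cell. A630089N07Rik was -0.015 with the next well, -0.017 with no replicate block and -0.014 without Foxp3 cells. The next well gave Folr4 0.057 and Fam78a -0.034. A130077B15Rik and Gm17821 were 0.63 and 0.22 with thinned cells, 0.46 and 0.22 without cells rich in Kcnq1ot1, where Vmn2r55 was 0.068 and Grk4 0.014, and 0.016 and 0.0078 without the richest Rn45s cell of each plate.

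Leaving out each plate gave ranges across 0. Between Middle-upper and Middle-lower cells these were Cd5 from -0.057 to 0.38, Folr4 from -0.45 to 0.20, Fam78a from -0.17 to 0.48, Grk4 from -0.0052 to 0.059, Pvr from -0.15 to 0.63, Ly6c1 from -0.66 to 0.49, Ly6e from -0.061 to 0.0062, Tnfrsf18 from -0.042 to 1.52, Tox from -0.25 to 0.027, Nt5e from -0.0060 to 0.40, Foxp3 from -0.16 to 0.95, Rgs10 from -0.32 to 0.0019, Itm2a from -0.26 to 0.58, Stat4 from -0.44 to 0.56, Il4ra from -0.45 to 0.37, Gimap4 from -0.046 to 0.31, Gimap7 from -0.26 to 0.76, Tap2 from -0.22 to 0.83, Ifit1 from -0.14 to 1.07, Cst3 from -0.42 to 0.41, Ctss from -0.050 to 0.075, mt-Rnr1 from -0.18 to 0.31, mt-Rnr2 from -0.12 to 0.22 and mtNd5 from -0.0024 to 0.14. The slope ranged for Fam78a from -0.46 to 0.66 and for Igfbp4 from -0.17 to 0.22. The midpoint comparison ranged for Cd5 from -0.36 to 0.061, Folr4 from -0.069 to 0.32, Fam78a from -0.023 to 0.32, A130077B15Rik from -0.11 to 0.12, Vmn2r55 from -0.0099 to 0.19, Grk4 from -0.13 to 0.21, Kcnq1ot1 from -0.013 to 0.22, A630089N07Rik from -0.0083 to 0.12 and Igfbp4 from -0.017 to 0.17. Against Low, Rn45s ranged from -0.030 to 0.13. Against High the ranges were Grk4 from -0.47 to 0.032, Kcnq1ot1 from -0.39 to 0.032, Gm17821 from -0.35 to 0.026 and Igfbp4 from -0.39 to 0.0095. Per doubling they were Cd5 from -1.16 to 0.10, A130077B15Rik from -0.46 to 0.23, Vmn2r55 from -0.26 to 0.11, Kcnq1ot1 from -0.32 to 0.21, A630089N07Rik from -0.21 to 0.17, Gm17821 from -0.33 to 0.28 and Cd6 from -0.039 to 0.81.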
